A study of Mus musculus with 13 samples.

Results

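The polycistron described here is a group of 7 miRNA hairpins on the mouse X chromosome, listed in the files as mmu-mir-322, mmu-mir-503, mmu-mir-351, mmu-mir-542, mmu-mir-450a-2, mmu-mir-450a-1 and mmu-mir-450b, and named below without the species prefix. It was measured by small RNA-seq of thymic invariant natural killer T (iNKT) cells and takes 7 of 1127 rows in the table of hairpin counts and 13 of 1297 rows in the table of mature counts. The members were chosen by name and by position, with the comparison of genotypes already known: mir-542 and mir-450a-1 were among the hairpins with the largest differences, and the rest belong to the same cluster. The levels in the 2 genotypes are therefore given as a description, without a test, and tests were run on what the choice did not use, which is the variation between mice of one genotype and rows outside the polycistron.

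The study sequenced iNKT cells, T cells that recognise lipid antigens, from 6 wild type (WT) mice and 7 *Tet2/3* double knockout (DKO) mice, with 1 library per mouse. WT mice were C57BL/6, and DKO mice had the genotype Tet2-/-Tet3flx/flxcd4cre, in which Tet2 is missing from the whole animal and Tet3 is deleted in T cells by a Cre driven from CD4. TET2 and TET3 are enzymes that oxidise 5-methylcytosine in DNA. Mice were 21 to 25 days old, both sexes were used, and the sex of each mouse was not given in the sources used here. CD24-depleted thymocytes were sorted as live cells positive for TCRβ and for the CD1d tetramer. Tet2 and Tet3 are protein-coding genes and have no row in these tables, so their loss was not checked here.

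A polycistron is a run of hairpins that can be cut from one primary transcript. Drosha releases each hairpin in the nucleus, Dicer cuts it in the cytoplasm to a 5p and a 3p arm, and usually one arm is kept in an Argonaute protein, where its seed (bases 2 to 8) pairs with target mRNAs. miR-322 is the mouse counterpart of human miR-424. With miR-503 it belongs to the extended miR-15/16 group, known for targeting mRNAs of cell cycle genes such as cyclins and Cdc25a, and the pair has been studied mainly in muscle, endothelium and tumours.

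The sequences below show which arms carry related seeds, printed in capitals, and come from RefSeq on GRCm38.p6. All 13 mature members matched an entry, and miR-16-5p and miR-125a-5p are given beside the members whose seed they resemble.
miR-322-5p: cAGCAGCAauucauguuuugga
miR-503-5p: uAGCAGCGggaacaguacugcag
miR-16-5p: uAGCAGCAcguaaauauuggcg
miR-351-5p: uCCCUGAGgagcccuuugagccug
miR-125a-5p: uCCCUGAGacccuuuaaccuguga
miR-542-5p: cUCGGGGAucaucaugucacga
miR-542-3p: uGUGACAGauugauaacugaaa
miR-450a-5p: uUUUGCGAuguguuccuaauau
miR-450b-5p: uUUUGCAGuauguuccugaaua
miR-450a-2-3p: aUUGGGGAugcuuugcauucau
miR-450a-1-3p: aUUGGGAAcauuuugcauaaau
miR-450b-3p: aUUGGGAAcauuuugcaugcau
miR-322-5p has the same seed as miR-16-5p, whereas miR-503-5p shares bases 2 to 7 with them and differs at base 8. miR-351-5p has the seed of the miR-125 family. miR-450a-1-3p and miR-450b-3p have one seed and differ at 2 positions, A19G and A20C, counted from the 5′ end of miR-450a-1-3p.

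The 3 mir-450 hairpins have some identical or similar arms, which limits how reads can be assigned. The 5p arms of mir-450a and mir-450b differ at 7 positions. The hairpins are shown with the mature arms in capitals.
mir-450a-2, chrX:53048299-53048367, minus strand: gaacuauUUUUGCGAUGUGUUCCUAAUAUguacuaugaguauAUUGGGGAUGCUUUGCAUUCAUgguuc
mir-450a-1, chrX:53048154-53048244, minus strand: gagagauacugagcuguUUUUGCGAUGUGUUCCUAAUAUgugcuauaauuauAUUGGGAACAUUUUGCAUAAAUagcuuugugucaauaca
mir-450b, chrX:53047997-53048078, minus strand: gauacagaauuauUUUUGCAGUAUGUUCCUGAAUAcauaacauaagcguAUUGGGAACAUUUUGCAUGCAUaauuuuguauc
miR-450a-5p is identical in both mir-450a hairpins, so a read of it cannot be assigned to one of them. The 3p arms of these hairpins differ at 6 positions. How reads that match several hairpins were counted is not given in the sources used here, so the split between mir-450a-1 and mir-450a-2 is uncertain. miR-450a-1-3p and miR-450b-3p differ at only 2 positions, both near the 3′ end. The split of reads between these 2 arms may therefore be uncertain too. No member had the same counts as another row of its table.

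On GRCm38 the 7 hairpins lie on the minus strand of chromosome X within 6353 bases, in the order mir-322 (53054255 to 53054349), mir-503 (53053984 to 53054054), mir-351 (53053255 to 53053353), mir-542 (53049403 to 53049487) and the 3 mir-450 hairpins. A gap of 3767 bases separates mir-351 from mir-542. mir-322, mir-503 and mir-351 fall inside the RefSeq span of the long noncoding RNA gene C430049B03Rik (53053112 to 53057190), and the other 4 hairpins do not. In GENCODE M21 the lincRNA gene Gm28730 (53051194 to 53053159) lies on the same strand between mir-351 and mir-542.

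Total counts per library ranged from 469117 to 1110226 in WT and from 728653 to 1910526 in DKO for hairpins, and from 1110852 to 2582057 and from 1837631 to 4361963 for mature sequences. Levels are CPM, read counts divided by a library total that was scaled by the trimmed mean of M-values (TMM), and are therefore relative to the other miRNAs of a library. Among all 350 tested hairpins, 32.6% were called higher and 27.1% lower in DKO by the quasi-likelihood test of edgeR at an adjusted p-value under 0.05.

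All 7 hairpins of the polycistron were more abundant in DKO than in WT, by 1.83-fold to 7.98-fold between group means, and for each of them every DKO mouse was above every WT mouse. Over all tested hairpins, 18.0% had every DKO mouse above every WT mouse. Summed over the members, the level went from 799 to 948 CPM in WT (median 831) to 1451 to 2561 CPM in DKO (median 2009). All 7 were called higher, but the choice of members used this comparison, so nothing is read from that count. The median log2 fold change was 2.33 for the members and 0.02 for all tested hairpins.

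mir-322 is the first hairpin and the most counted one. It ranged from 509 to 732 CPM in WT (median 592) and from 776 to 1463 CPM in DKO (median 1081), a log2 fold change of 0.87 (SE 0.15). mir-351, the hairpin whose 5p arm has the miR-125 seed, ranged from 117 to 213 CPM in WT (median 172) and from 299 to 516 CPM in DKO (median 350.9), a log2 fold change of 1.20 (SE 0.18). These were the 2 smallest differences of the polycistron, and in both the lowest DKO mouse stood above the highest WT mouse.

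mir-503 lies between them on the chromosome but differed more. It ranged from 20.2 to 42.9 CPM in WT (median 30.6) and from 99.0 to 151 CPM in DKO (median 127), a log2 fold change of 1.98 (SE 0.20).

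mir-542, whose 3p arm is known for targeting the mRNA of survivin, an inhibitor of apoptosis, differed most. It ranged from 13.8 to 23.0 CPM in WT (median 17.1) and from 101 to 183 CPM in DKO (median 138), a log2 fold change of 3.01 (SE 0.20). The raw counts behind these levels were 77 in all WT libraries together and 1646 in all DKO libraries.

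The mir-450 hairpins followed. mir-450a-2 ranged from 0 to 8.57 CPM in WT (median 5.06) and from 22.3 to 42.8 CPM in DKO (median 34.0), a log2 fold change of 2.61 (SE 0.42). mir-450a-1 ranged from 0 to 11.2 CPM in WT (median 8.86) and from 30.2 to 63.1 CPM in DKO (median 44.9), a log2 fold change of 2.80 (SE 0.47), which was 3.48 with limma-voom and sample weights. Both were at the limit of detection in WT, with 24 and 30 counts over the 6 libraries, and 1 WT library held no count of mir-450a-2 and 2 held none of mir-450a-1. mir-450b ranged from 21.4 to 46.1 CPM in WT (median 38.6) and from 94.5 to 251 CPM in DKO (median 180), a log2 fold change of 2.33 (SE 0.26). The SEs of mir-450a-1 and mir-450a-2 were the largest of the 7.

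**Figure D1:**
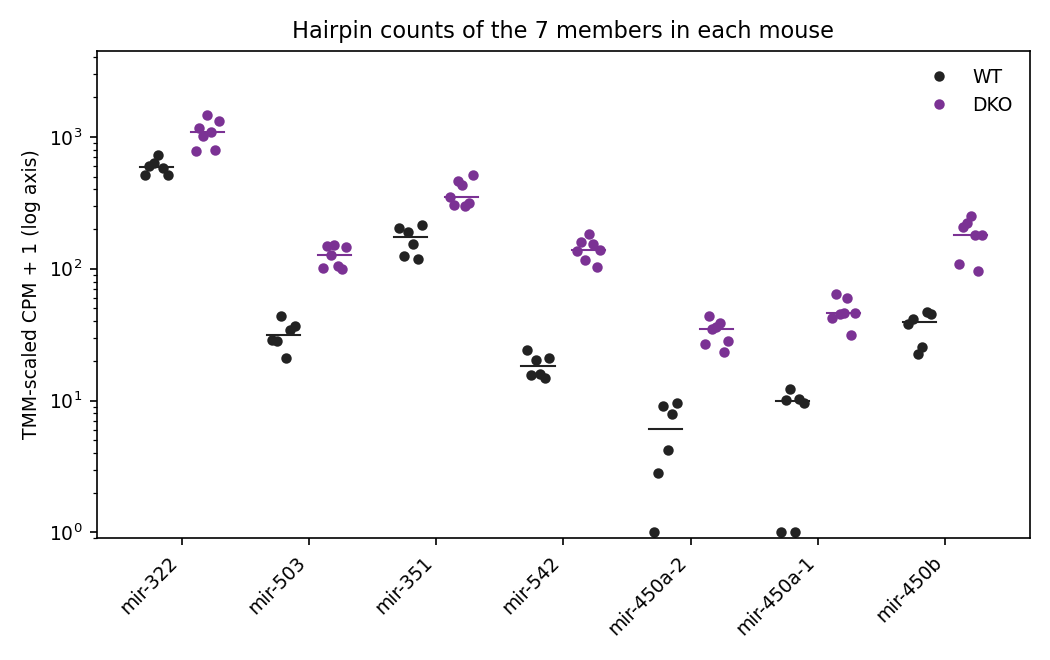
TMM-scaled CPM plus 1, on a log axis, of the 7 hairpins in each of 6 WT (black) and 7 DKO (purple) mice, with a line at the median of each genotype. Every DKO point lies above every WT point of the same hairpin, and WT points at the bottom of the axis are libraries with no count.

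These libraries come from sorted cells pooled per mouse, so a larger number of cells that hold a miRNA and more of it per cell cannot be told apart. The study's authors describe iNKT cells of these DKO mice as expanded and skewed towards NKT17, a subset that expresses RORγt. The part of subset composition in the levels of the polycistron was not tested. The tested hairpins listed for stroma, red cells and myeloid cells were lower in DKO, and the myeloid list holds only 1 hairpin. Of 12 hairpins listed for mesenchymal stroma and muscle, 4 were tested and all 4 were lower in DKO, and the summed list ranged from 82.3 to 204 CPM in WT and from 11.3 to 44.9 CPM in DKO. Of these, mir-199a-1, mir-199a-2 and mir-199b had nearly equal means in WT (28.1, 29.6 and 29.1 CPM). The same reads may therefore be counted more than once in the sum, and these hairpins are not separate signals. Of 4 red cell hairpins, 3 were tested and all 3 were lower, with sums of 803 to 2242 CPM in WT and 175 to 657 CPM in DKO. The same limit holds for mir-486a and mir-486b, with means of 662 and 661 CPM in WT. The myeloid hairpin mir-223 was also lower, at 20.1 to 310 CPM against 0 to 19.2 CPM. The lymphocyte list had sums of 182912 to 214383 CPM in WT and 169917 to 235442 CPM in DKO, with 3 of 6 hairpins higher and 2 lower. Among the higher ones, mir-181a-1 and mir-181a-2 also had nearly equal means (36581 and 36011 CPM in WT). The epithelial list had sums of 601 to 810 and 589 to 704 CPM, and the endothelial list 179 to 400 and 163 to 246 CPM. No listed hairpin was at 0 in every library, and the part of these differences in the levels of the polycistron was not tested.

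The size of the difference was also compared among hairpins, as a description, since it comes from the comparison used to choose the members and mir-322 had the smallest of the 7 differences. Ratios of counts within a library do not depend on how libraries are scaled, so each hairpin was set against mir-322 of the same library. mir-542 and the 3 mir-450 hairpins together held 10.4 counts per 100 counts of mir-322 in WT and 36.8 in DKO, pooled over mice. On the log2 scale this ratio averaged -3.21 ± 0.49 over the WT mice (SD, n = 6). Over the DKO mice it averaged -1.46 ± 0.19 (SD, n = 7), and the genotypes did not overlap. For hairpins outside the polycistron, how often ratios to mir-322 lack overlap was not measured. The lack of overlap is therefore not read as particular to the members. As a share of all member hairpin counts, the 4 downstream hairpins ranged from 4.49% to 9.63% in WT (median 7.77%) and from 16.4% to 22.5% in DKO (median 20.1%).

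mir-503 also had more counts per 100 of mir-322 in DKO, 11.5 against 5.22 in WT, without overlap of the genotypes. mir-351, the next hairpin on the chromosome, had 27.1 and 34.1 counts per 100, and its genotypes overlapped. The mature arms, which hold more counts, were set against miR-322-5p in the same way. miR-450a-5p had 8.21 counts per 100 of miR-322-5p in WT and 22.9 in DKO, miR-450b-3p had 8.58 and 16.8, and miR-542-5p had 2.01 and 5.05, all without overlap. The ratios of miR-503-5p (13.7 and 20.2) and miR-351-5p (36.6 and 41.1) overlapped between genotypes. For hairpins and arms outside the polycistron, how often such ratios lack overlap was not measured. The cases without overlap are therefore not read as particular to the members.

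**Figure D2:**
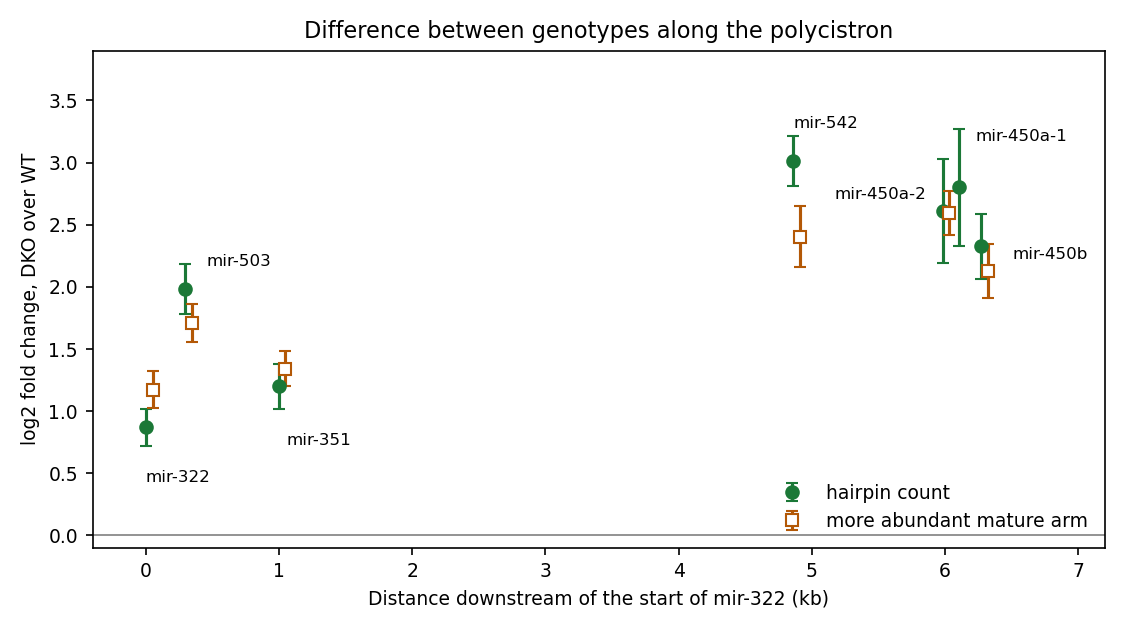
log2 fold change of DKO over WT (points, with bars of 1 SE) against the distance of each hairpin from the start of mir-322 in kb, for hairpin counts (filled circles) and the more abundant mature arm (open squares, shifted slightly to the right, with miR-450a-5p drawn at mir-450a-2). mir-322 and mir-351 have the smallest hairpin values (0.87 and 1.20), mir-503 has 1.98, and the 4 hairpins beyond the gap have 2.33 to 3.01.

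**Figure D3:**
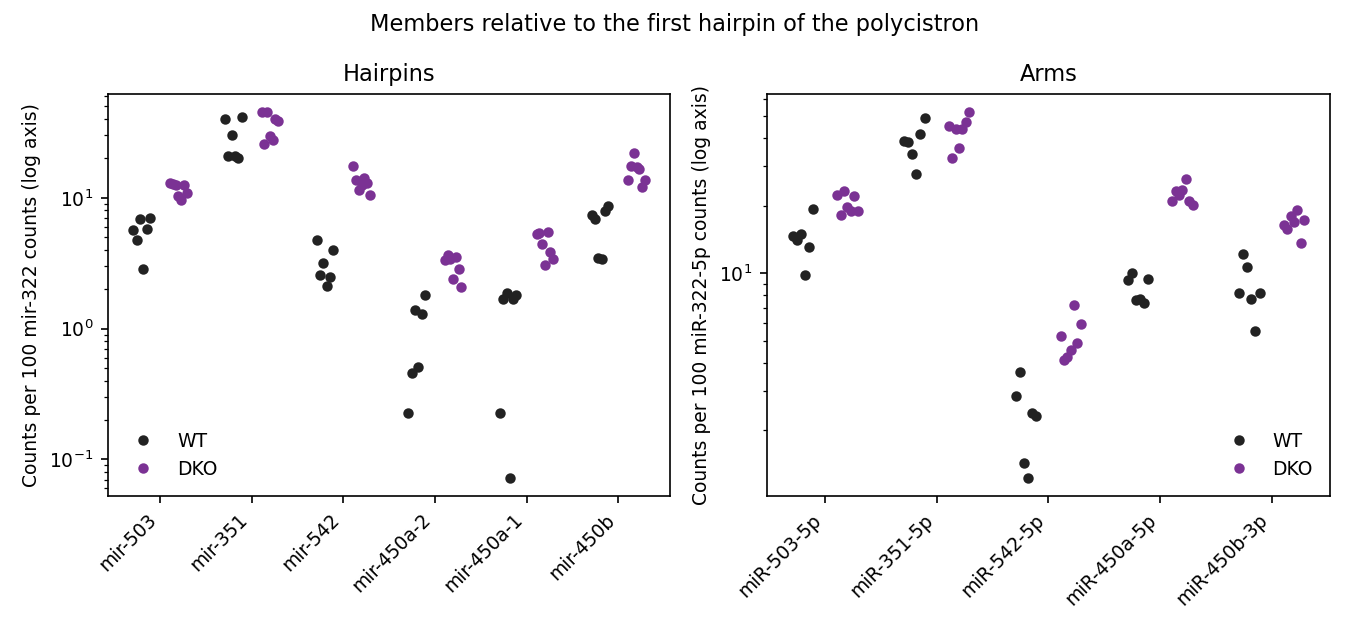
Counts of each member per 100 counts of mir-322 (hairpins, left) or of miR-322-5p (arms, right) in each mouse, after adding 0.5 to each count, on log axes, in WT (black) and DKO (purple). mir-351 and miR-351-5p overlap between genotypes, as does miR-503-5p, and the other members do not.

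Both arms were then followed for each hairpin. In the mature table, 12 of 13 members passed the filter on low counts, 11 were called higher and 9 had every DKO mouse above every WT mouse. Over all 401 tested mature sequences, 28.2% were called higher, 27.4% lower, and 12.7% had every DKO mouse above every WT mouse. Again nothing is read from the members' counts. Summed over all 13, the level was 1209 to 1736 CPM in WT (median 1560) and 2987 to 5405 CPM in DKO (median 4416).

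From mir-322 both arms were counted in every mouse. miR-322-5p ranged from 646 to 1071 CPM in WT (median 863) and from 1338 to 2498 CPM in DKO (median 1908), a log2 fold change of 1.17 (SE 0.15). miR-322-3p ranged from 64.7 to 83.9 CPM in WT (median 76.4) and from 149 to 317 CPM in DKO (median 232), a log2 fold change of 1.59 (SE 0.19). Neither arm overlapped between genotypes.

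For mir-503 and mir-351 the 5p arm held nearly all counts. miR-503-5p ranged from 94.0 to 141 CPM in WT (median 120) and from 296 to 493.3 CPM in DKO (median 390), a log2 fold change of 1.71 (SE 0.15). miR-351-5p ranged from 252 to 371 CPM in WT (median 318) and from 630 to 1075 CPM in DKO (median 801), a log2 fold change of 1.34 (SE 0.14). Their 3p arms were near the limit of detection. miR-503-3p, which was not tested, had 0 to 19 counts per library in WT and 0 to 14 in DKO, and its genotypes overlapped. miR-351-3p had 0 to 12 counts in WT and 13 to 45 in DKO, but its genotypes overlapped in CPM and it was not called (log2 fold change 1.15, SE 0.62). With limma-voom and sample weights it was called, at a log2 fold change of 1.88.

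miR-542-5p ranged from 11.9 to 31.5 CPM in WT (median 17.2) and from 65.6 to 131 CPM in DKO (median 92.4), a log2 fold change of 2.40 (SE 0.25). Its partner miR-542-3p had 0 to 10 counts per library in WT and 10 to 63 in DKO, with overlap in CPM and a log2 fold change of 2.66 (SE 0.64). WT replicate 3 held 10 of the 14 WT counts of miR-542-3p, and the fold change rose to 3.85 on the log2 scale when that library was left out. The 2 arms thus differed between genotypes by amounts that their errors do not separate.

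miR-450a-5p, the product of both mir-450a hairpins, ranged from 60.2 to 88.4 CPM in WT (median 67.0) and from 281 to 588 CPM in DKO (median 426), a log2 fold change of 2.59 (SE 0.18). miR-450a-1-3p had 1 to 16 counts in WT and 49 to 200 in DKO (log2 fold change 2.35, SE 0.37). miR-450a-2-3p had 0 to 7 counts in WT and 20 to 79 in DKO (log2 fold change 2.91, SE 0.56), and overlapped in CPM because 1 WT library reached 5.38 CPM and 1 DKO library had 5.12. Without that WT library, replicate 2, the log2 fold change of miR-450a-2-3p was 3.53. The 5p arm, with the most counts, therefore gives the most precise value for the mir-450a pair.

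mir-450b was the only hairpin of the cluster with more counts on its 3p arm. miR-450b-3p ranged from 49.0 to 107 CPM in WT (median 70.5) and from 183 to 425 CPM in DKO (median 347), a log2 fold change of 2.13 (SE 0.22). miR-450b-5p had 0 to 7 counts in WT and 17 to 81 in DKO, without overlap in CPM, and a log2 fold change of 2.76 (SE 0.54).

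**Figure D4:**
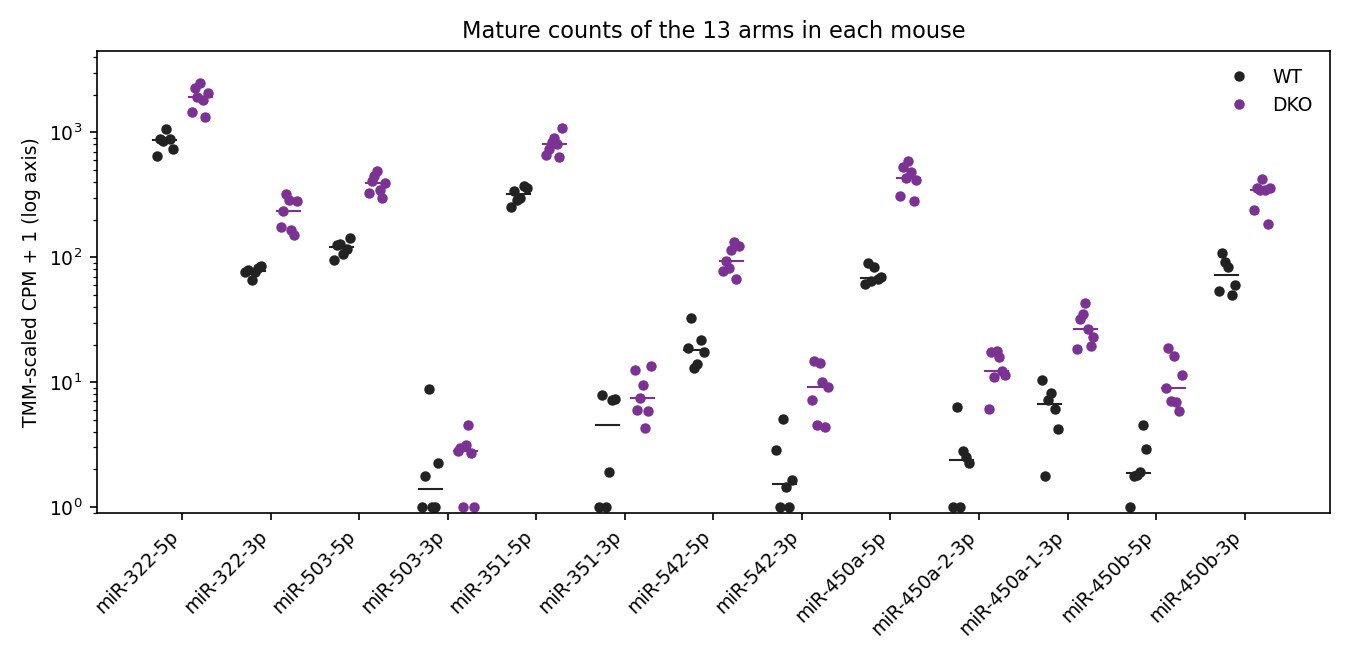
TMM-scaled CPM plus 1, on a log axis, of the 13 mature arms in each of 6 WT (black) and 7 DKO (purple) mice, with a line at the median of each genotype. The genotypes overlap for miR-503-3p, miR-351-3p, miR-542-3p and miR-450a-2-3p, the arms with few counts, and not for the other 9.

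The balance between arms overlapped between genotypes for every hairpin. The 5p arm held 92.0% of the arm counts of mir-322 in WT and 89.5% in DKO, pooled over mice. It held 98.3% and 99.5% for mir-503, 99.0% and 99.1% for mir-351, 93.0% and 91.8% for mir-542, and 91.2% and 91.6% for the mir-450a pair, whose 3p counts were added up. For mir-450b it held 1.87% and 3.06%. WT replicate 3 held 19 of the 22 WT counts of miR-503-3p, and without it the WT share was 99.7% for mir-503, above that of DKO, and 97.5% for mir-542. The order of the genotypes also turned without 1 library for mir-351, mir-542 and the mir-450a pair, so no direction is read from these shares. The major arm was the same in both genotypes.

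The hairpin table held fewer counts than the mature table for each member, and for mir-322 this relation differed between genotypes. Hairpin counts of mir-322 were 26.3% to 28.8% of the counts of its 2 arms in WT (median 27.3%) and 19.4% to 25.9% in DKO (median 21.7%), without overlap. For mir-351 the shares overlapped, at 13.7% to 32.8% in WT and 15.9% to 24.3% in DKO. They also overlapped for mir-503, mir-542, mir-450a and mir-450b. Their medians were 11.6%, 47.1%, 7.40% and 22.1% in WT and 14.0%, 61.6%, 7.57% and 22.5% in DKO. For mir-503 the overlap was small, with 12.8% in the highest WT mouse and 12.55% in the lowest DKO mouse. Whether a read could count in both tables is not given in the sources used here. The shares are therefore not read as the ratio of uncut hairpins to cut arms. How often such shares lack overlap for hairpins outside the polycistron was not measured. The difference is therefore not read as particular to mir-322.

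Whether the members rise together from mouse to mouse was tested within each genotype, which the choice of members did not use. log2 CPM of miR-322-5p was correlated with that of the more abundant arm of each other hairpin, which made 10 relations over both genotypes, with exact two-sided permutation tests and Benjamini-Hochberg adjustment. In DKO (n = 7) miR-322-5p rose with miR-450b-3p (r = 0.945, exact p = 0.000595, adjusted p = 0.00595), miR-450a-5p (r = 0.952, exact p = 0.00298, adjusted p = 0.0149) and miR-503-5p (r = 0.903, exact p = 0.00655, adjusted p = 0.0218). Spearman's rho was 0.964 (exact p = 0.00278, adjusted p = 0.0278), 0.857 (exact p = 0.0238, adjusted p = 0.0794) and 0.893 (exact p = 0.0123, adjusted p = 0.0615), so only miR-450b-3p passed by both measures. miR-351-5p (r = 0.706, exact p = 0.0750, adjusted p = 0.188; rho = 0.714, exact p = 0.0881) and miR-542-5p (r = 0.670, exact p = 0.110, adjusted p = 0.219; rho = 0.536, exact p = 0.236) did not pass. None of 389 tested mature sequences outside the polycistron had an r with miR-322-5p in DKO as high as those of miR-503-5p, miR-450a-5p and miR-450b-3p, and their median r was -0.0995.

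Single mice were then left out in DKO. DKO replicate 6 had the lowest level of 9 of the 12 tested arms, and replicate 4 the highest level of 6. Without the 2 mice farthest from the median of miR-322-5p, r was 0.856 for miR-450b-3p, 0.768 for miR-450a-5p, 0.729 for miR-503-5p, 0.0727 for miR-351-5p and -0.0409 for miR-542-5p, and none passed. With 5 mice the smallest exact permutation p-value is 0.00833, which for a single relation among 10 adjusts to 0.0833. A single relation at that value could not pass, but several relations at that value would adjust to less. The r values had been 0.945 for miR-450b-3p, 0.952 for miR-450a-5p and 0.903 for miR-503-5p with all DKO mice, so they fell as well. The part of the number of mice in these lost calls was not tested. With 1 mouse left out at a time, miR-450b-3p passed each time (r from 0.934 to 0.968). miR-450a-5p (r from 0.917 to 0.987) no longer passed without replicate 1, 2, 4 or 6, and miR-503-5p (r from 0.840 to 0.959) passed only without replicate 3. miR-322-5p had an r of -0.202 with the log2 library total in DKO, and miR-351-5p one of -0.713. For the other arms it ran from -0.291 for miR-450b-3p to -0.0172 for miR-450a-5p. The part of library depth in these relations was not tested.

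In WT (n = 6) no relation passed by the exact permutation test. r was 0.660 for miR-450a-5p (exact p = 0.164, adjusted p = 0.273), 0.497 for miR-450b-3p (exact p = 0.324), 0.292 for miR-351-5p (exact p = 0.560), 0.0677 for miR-503-5p (exact p = 0.913) and -0.107 for miR-542-5p (exact p = 0.847). Spearman's rho ran from -0.143 for miR-503-5p and miR-450b-3p to 0.600 for miR-450a-5p, and was 0.429 for miR-351-5p and 0.0286 for miR-542-5p. Without the 2 mice farthest from the median, r ran from -0.954 for miR-503-5p to 0.407 for miR-542-5p. WT libraries held fewer counts, down to 19 of miR-542-5p in a library, and miR-322-5p had an r of 0.778 with the log2 library total in WT. For miR-542-5p that r was -0.544, and for the other arms it ran from 0.126 to 0.288. Whether the relations differ between WT and DKO was not tested.

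**Figure D5:**
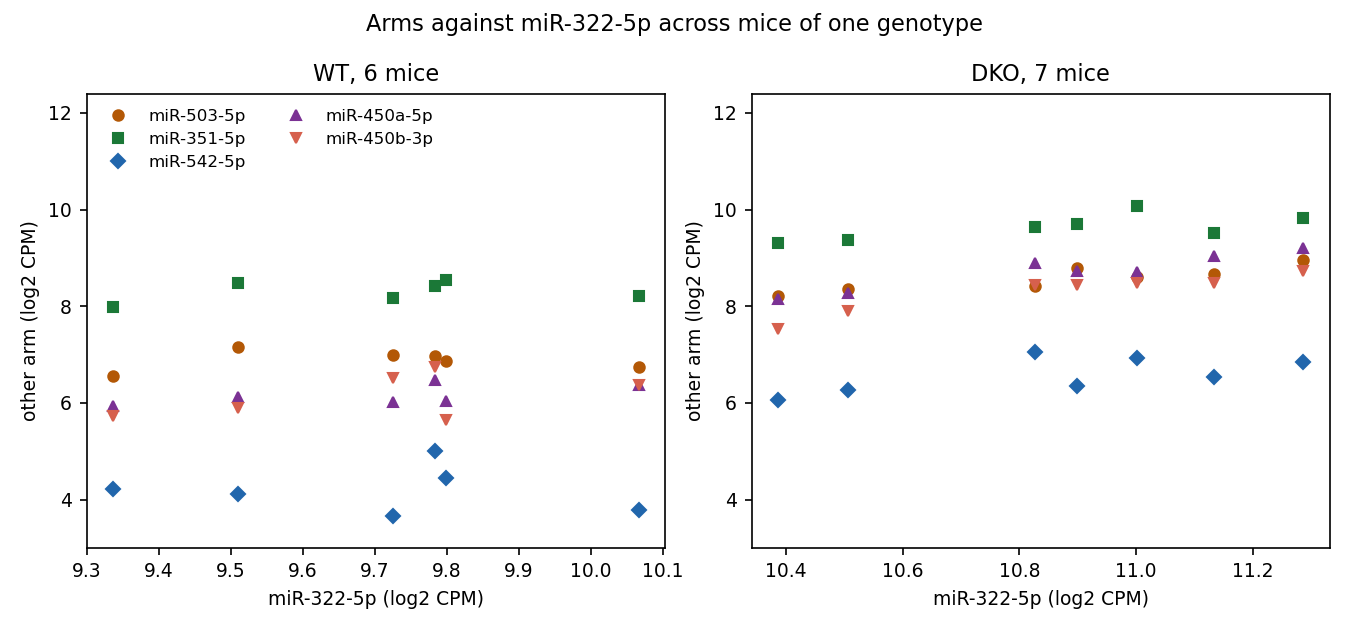
log2 CPM of the more abundant arm of each other hairpin against log2 CPM of miR-322-5p, 1 point per arm and mouse, in 6 WT mice (left) and 7 DKO mice (right), with different horizontal ranges. In DKO miR-450b-3p, miR-450a-5p and miR-503-5p are higher in the mice with more miR-322-5p (r = 0.945, 0.952 and 0.903), and in WT the points show no relation that passed the test.

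The rest of the chromosome and of the table was used for comparison. Of 26 other tested X-linked hairpins, 3 were called higher and 7 lower in DKO, against 32.6% higher and 27.1% lower among all tested hairpins, and their median log2 fold change was -0.14. The count called higher depended on scaling and was 10 with library size only and 1 with upper-quartile factors. It was 6 without DKO replicate 5.

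The polycistron from mir-106a to mir-363 is the nearest other X-linked miRNA cluster, a relative of the miR-17~92 cluster. Of its 6 hairpins, mir-106a was higher (log2 fold change 0.59, SE 0.11, edgeR adjusted p = 0.000147) and mir-92a-2 lower (log2 fold change -0.84, SE 0.15, edgeR adjusted p = 0.000102), and both kept direction and call under every scaling and tool tried. mir-20b was called higher at a log2 fold change of 0.25 (edgeR adjusted p = 0.0377), but not with RLE or upper-quartile factors or with DESeq2. mir-18b (0.67), mir-19b-2 (0.36) and mir-363 (-0.03) were not called. With library size only all of these were called higher, at log2 fold changes of 1.01, 0.71 and 0.31, and with upper-quartile factors mir-363 was called lower at -0.27, so no direction is given for them. mir-92a has a near-identical copy on another chromosome, so its reads may be split between hairpins.

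Mature sequences outside the polycistron that share a seed with a member were examined next. miR-15a-5p, miR-15b-5p, miR-16-5p, miR-195a-5p and miR-497a-5p have the seed of miR-322-5p. None of these 5 was called by edgeR (adjusted p from 0.0602 to 0.842) or by DESeq2, while 2 had an unadjusted p-value under 0.05 and 2 were called lower by limma-voom, namely miR-16-5p and miR-15b-5p. miR-16-5p, the most counted of them, had a log2 fold change of -0.25 (SE 0.11), which was -0.42 and called with upper-quartile factors and -0.02 with library size only. miR-15b-5p, at -0.24 (SE 0.11), depended on scaling likewise, with -0.40 and a call with upper-quartile factors and -0.00095 with library size only. miR-322-5p and miR-503-5p together made up 0.367% to 0.511% of the counts of the group in WT and 0.739% to 1.75% in DKO, without overlap. The choice of members used this comparison, so nothing is read from this difference in share.

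miR-351-5p has the seed of miR-125a-5p and miR-125b-5p. miR-125a-5p was higher in DKO (log2 fold change 0.78, SE 0.18, edgeR adjusted p = 0.00133), with means of 4612 CPM in WT and 7927 CPM in DKO, and miR-125b-5p was lower (log2 fold change -2.55, SE 0.46, edgeR adjusted p = 0.000151). miR-351-5p made up 3.35% to 8.69% of the counts of this group in WT and 7.36% to 12.2% in DKO, and the genotypes overlapped. The directions of miR-125a-5p and miR-125b-5p were kept under every scaling and tool tried.

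Likeness to the polycistron was measured as Pearson's r of log2 CPM, centred within each genotype, with the summed member hairpins over 13 mice. As the sum is mostly mir-322, that hairpin had an r of 0.943, followed by mir-450b (0.530), mir-503 (0.525), mir-542 (0.477), mir-351 (0.429), mir-450a-2 (0.285) and mir-450a-1 (0.0784). Among 343 other tested hairpins, those most alike were mir-141 (0.657), mir-142a (0.651), mir-142b (0.650), mir-466b-3 (0.603) and mir-140 (0.594), and the median was -0.0317. mir-142a and mir-142b had nearly equal means (103388 and 103661 CPM in WT), so they may not be separate signals. The hairpins of the polycistron other than mir-322 were below these 5, which are the highest of 343. Among all 350 tested hairpins, mir-450b ranked 11, mir-503 12, mir-542 23, mir-351 34, mir-450a-2 73 and mir-450a-1 133. These r values describe 13 points that also share library depth and scaling.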

How the data were processed

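Small RNA was extracted from sorted iNKT cells of 13 mice, sequenced, and processed by the authors with nf-core/smrnaseq. The aligner, the miRNA database release and the handling of reads with several matches are not given in the sources used here. The deposited values are raw counts per hairpin and per mature sequence, 1 column per mouse, not normalised by the authors. The submitters' processing notes name build mm10.

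From these counts, filterByExpr (edgeR 4.0.16, at least 10 counts and 15 in total) left 350 of 1127 hairpins and 401 of 1297 mature sequences. Libraries were scaled by TMM, and genotypes were compared over all 13 libraries with a robust quasi-likelihood fit and Benjamini-Hochberg adjustment within each table. log2 CPM used a prior count of 2, and ratios of counts a pseudocount of 0.5. DESeq2 1.42.0, limma 3.58.1 (voom), other scalings, filters and leaving out libraries were alternatives. Scripts were tested on simulated data. R 4.3.3, Python 3.11.15 and scipy 1.17.1 were used. Positions came from GENCODE M21 and RefSeq, and 342 of 350 tested hairpins had one.

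The named miRNAs are all members, tested mature sequences with a member's seed, the hairpins from mir-106a to mir-363, the 5 hairpins most like the polycistron, and cell type lists. Members, lists and tests were chosen with earlier results of these data known. Libraries of one genotype differed by more than sampling noise (chi-square per degree of freedom at least 17.6), so each is 1 replicate. Replicate numbers were not taken to pair mice. Counts come from reads without molecular identifiers as far as the sources say, so intervals and SEs may miss error from amplification.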

Additional observations from a re-analysis of the deposited data

Results flagged for a closer look

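Of 58 groups of values examined, 1 held a mouse far from the others of its genotype, where chance gives about 2.9. miR-351-5p made up 3.35% of the counts of its seed group in WT replicate 1, and the next lowest WT mouse had 6.73%. The cause was not tested.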

How the results depend on the processing

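All 7 hairpins were called higher under every scaling and tool, and the number was 4 of 4 tested with at least 10 counts in every library. For mature arms it was 7 of 7 tested under that filter, which leaves fewer arms to test. Leaving out 1 library at a time gave 7 hairpins each time and 10 to 11 arms. Without the shallowest library of each genotype, chosen after seeing the data, 7 hairpins and 11 arms were called. As the choice of members used this comparison, nothing is read from these counts of members. Library size only moved the median log2 fold change of all hairpins from 0.02 to 0.36 and the calls from 114 higher and 95 lower to 151 and 56, upper-quartile factors gave 93 and 137, and DESeq2 gave 109 and 164. For mature sequences the calls went from 113 higher and 110 lower to 142 and 77 with library size only and 89 and 132 with upper-quartile factors. For mir-322 the log2 fold change ran from 0.64 with upper-quartile factors to 1.22 with library size only.

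The count of other X-linked hairpins called higher was 10 with library size only, 1 with upper-quartile factors, 5 with every hairpin of at least 1 count, and 2 to 6 without 1 library. With library size only, the correlation with miR-322-5p in WT was -0.0526 for miR-503-5p and -0.0319 for miR-351-5p, and in DKO it was 0.843 for miR-351-5p, which then passed (exact permutation, adjusted p = 0.0441). Without the 2 farthest mice, it was -0.954, -0.123 and 0.407 for miR-503-5p, miR-351-5p and miR-542-5p in WT, and 0.729, 0.768, 0.856 and -0.0409 for miR-503-5p, miR-450a-5p, miR-450b-3p and miR-542-5p in DKO. Without 1 mouse at a time, chosen after seeing the data, it ran from -0.977 to 0.464, from -0.484 to 0.618 and from -0.403 to 0.297 in WT, and from 0.840 to 0.959 and from 0.917 to 0.987 for miR-503-5p and miR-450a-5p in DKO. With fewer mice the exact test has less room to pass, and the cause of these changes was not tested. With a pseudocount of 2, the DKO minus WT difference in arm balance went from -0.61 to 0.17 for mir-351, from -0.59 to 0.40 for mir-542 and from 0.61 to -0.15 for mir-450b, so no direction is read for them.

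Replicate numbers are shared between genotypes but were not taken to pair the mice, since the correlation of deviations of same-numbered mice was not above 0.1 for every number. It ran from -0.0504 to 0.342 for hairpins and from 0.0116 to 0.335 for mature sequences, and in both tables WT replicates 5 and 6 correlated best with the DKO mouse of their own number, while most others did not. With the replicate number as a block (12 libraries), 7 of 7 hairpins and 11 of 12 tested arms were called higher, and all hairpins gave 115 higher and 102 lower. Here too nothing is read from the members' counts.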
